A study of Mus musculus with 6 samples.

Results

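Mitochondria move electrons from nutrients to oxygen through a series of membrane complexes and use the resulting proton gradient to make ATP. Described here are the nuclear genes for complexes II to V of that series in cultured mouse osteoclasts with and without added HES1. Members were taken by symbol, as every protein-coding gene named Cyc1 or Cycs or starting with Sdh, Uqcr, Cox and a digit, or Atp5, and reaching 10 counts in the sum of all 6 libraries. This gave 58 genes of 16954 that reached 10 counts (55573 genes were listed). They comprised 4 subunits and 4 assembly factors of complex II, 9 subunits of complex III, cytochrome c, 14 subunits and 8 assembly factors of complex IV, the supercomplex factor Cox7a2l, 16 subunits of complex V and its coupling factor Atp5s. Another 5 of the 63 genes that fit the symbols were left out, all at 0 counts in every library (Cox20, Cox7b2, Cox8b, Cox8c and a second annotation of Atp5o whose exons all lie within other genes). Just inside the threshold stood Cox4i2, with exactly 10 counts. Complex I is not among the members.

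Bone marrow-derived macrophages (BMMs), the precursors of osteoclasts, were taken from 10-week-old male mice. Differentiation took 4 days in M-CSF (30 ng/ml), which keeps precursors alive, plus the osteoclast-inducing cytokine RANKL (10 ng/ml), and RNA of the whole culture was sequenced in 3 control and 3 Rosa-Hes1 libraries. Rosa-Hes1 cells were CtskCre/WT;RosaHes1, meaning that Cre recombinase knocked into the cathepsin K (Ctsk) locus removed a loxP-flanked STOP cassette and let Hes1, a transcriptional repressor downstream of Notch, be made from the Rosa26 locus. Controls carry the label wild type, and the study's methods describe them as Rosa[STOP]Hes1 littermates, which hold the silent transgene and no Cre. Ctsk is expressed as osteoclasts mature but not in osteoclasts alone, and the Rosa26 and Cre lines came from different strain backgrounds. The labels call the libraries biological replicates without saying which animals they came from, so the p-values measure the spread between these libraries.

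Complex II (succinate dehydrogenase) oxidizes succinate and passes electrons to coenzyme Q, complex III moves them from coenzyme Q to cytochrome c, and complex IV hands them to oxygen. Complexes III and IV pump protons, and complex V (ATP synthase) lets protons back through a rotor to make ATP. Complex II is encoded by nuclear genes alone, whereas complexes III to V combine nuclear subunits with a few made from mitochondrial DNA. Osteoclasts are rich in mitochondria, and mitochondrial content is known to increase as macrophages become osteoclasts.

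Each library held 13038362 to 15956331 counts assigned to genes. Hes1 was at 0.457 ± 0.141 CPM (counts scaled to a library of 1000000, SD, n = 3) in control and 5.56 ± 1.17 CPM (SD, n = 3) in Rosa-Hes1 libraries, in the direction of the labels (log2 fold change 3.57 ± 0.30 SE, edgeR quasi-likelihood test with Benjamini-Hochberg adjustment, adjusted p = 0.00477). Of 10 osteoclast markers, 9 rose (Ctsk did not pass), and their summed level was 10755 to 13810 CPM in control and 17050 to 20015 CPM in Rosa-Hes1 libraries. Genes of dividing cells summed to 1741 to 2048 CPM in control and 1060 to 1663 CPM in Rosa-Hes1 libraries, and 2 of 6 fell by edgeR (Mcm2 and Pcna, with 5 of 6 lower at an unadjusted p under 0.05), whereas DESeq2 called 5 of 6 lower. Among 8 macrophage markers Cd68 rose and Cx3cr1 fell. Of 6 osteoblast and stroma markers tested, which summed to 90.8 to 258 CPM in control and 58.2 to 198 CPM in Rosa-Hes1 libraries, and 4 neutrophil markers, none was called. Cd3e was at 0, and Cd79a and the erythroid globins were below 1 CPM in every library. In bulk cultures, a larger share of osteoclasts and more RNA of a gene per cell cannot be told apart, and the part of the osteoclast and dividing-cell markers in the results below was not tested.

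Part of the genes for complexes II to V rose in Rosa-Hes1 osteoclasts. Of the 58 members, 17 were called higher and 0 lower at an adjusted p under 0.05 (edgeR quasi-likelihood test, Benjamini-Hochberg over all 16954 genes), where 5.85% of all genes tested were called higher and 2.41% lower (8.25% in either direction). No member was lower at an unadjusted p under 0.05 by edgeR or by limma-voom, and DESeq2 called 23 higher and 0 lower, with 2 lower at an unadjusted p under 0.05. The 23 were the 17 and Sdhd, Uqcr11, Cox6b1, Cox7b, Atp5j2 and Cox7a2l, and below a gene is said to be called, or to rise or fall, by the edgeR test. Values after ± are the standard error (SE) for a log2 fold change and the SD for a level. The called members rose by 0.28 to 0.51 on the log2 scale, that is 1.21 to 1.42-fold. The median log2 fold change of the 58 members was 0.24, against -0.01 over all genes tested. All 3 Rosa-Hes1 libraries stood above all 3 control libraries for 32 members and below them for 0, compared with 16.6% of all genes above and 14.5% below. Since a call depends on depth, the 45 members with a mean of at least 30 CPM were also set beside the 6536 genes at that level. There 17 of 45 members were called higher and 0 lower, where 10.1% and 4.59% of such genes were, and 43 of 45 had a log2 fold change above 0, where 47.8% of such genes did. None of the 13 members below 30 CPM was called by edgeR, DESeq2 or limma-voom, and 1 of them (Cox7a1) had an unadjusted p under 0.05. For so few genes 0 calls are near the 8.25% of all genes tested. The calls depended on single libraries. Without control 1, control 3 or Rosa-Hes1 1 edgeR called 0 members, with 24, 28 and 26 higher at an unadjusted p under 0.05. Without Rosa-Hes1 3 it called 2, without control 2 it called 10 and without Rosa-Hes1 2 it called 27, while the median of the 43 subunits moved only between 0.22 and 0.34.

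**Figure D1:**
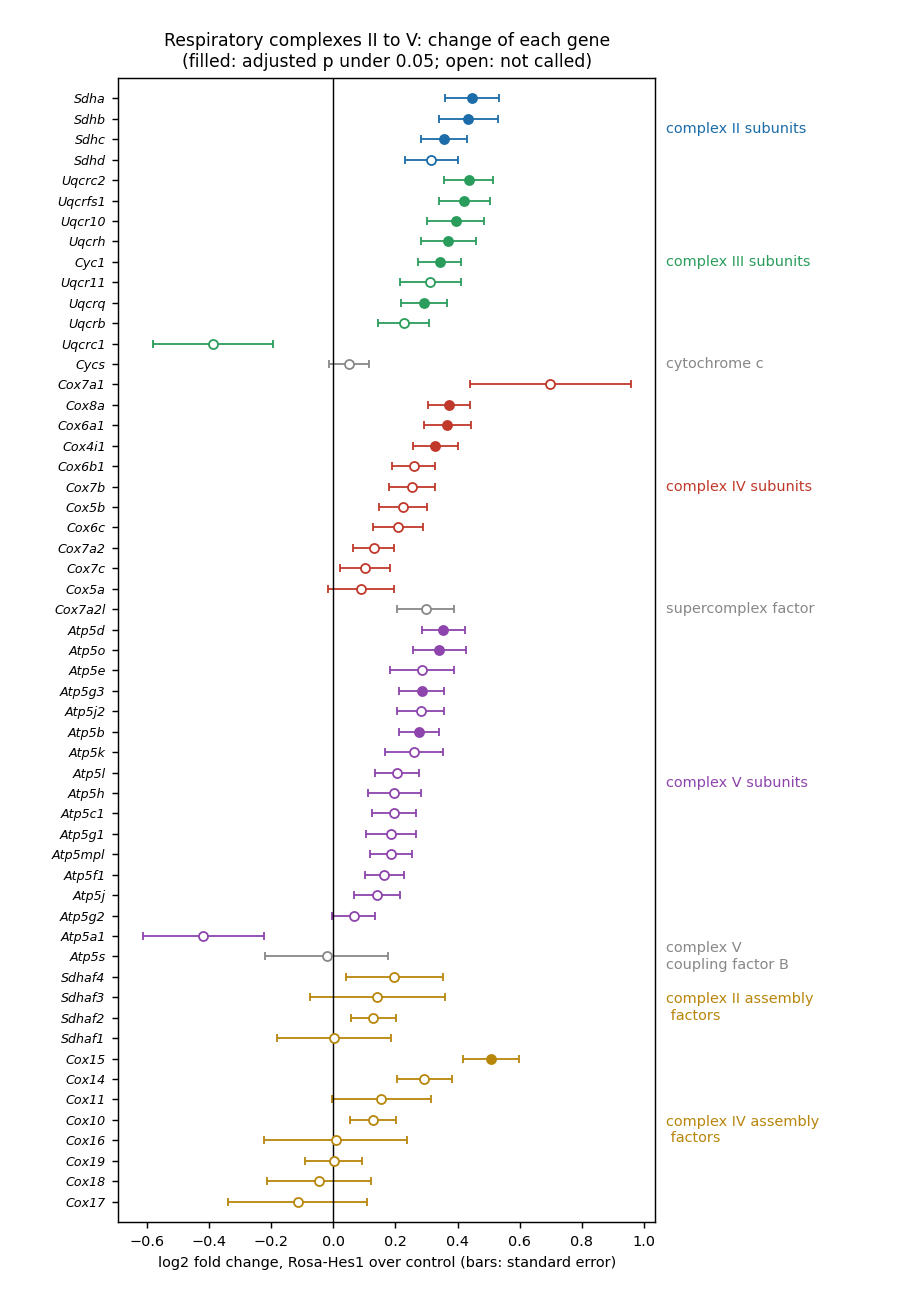
Log2 fold change of each member with a mean of at least 1 CPM (x axis, Rosa-Hes1 over control, 3 libraries each; bars are the standard error of the edgeR estimate), ordered by complex. Filled points passed an adjusted p of 0.05; all 17 lie right of 0, between 0.28 and 0.51, and Uqcrc1 and Atp5a1 are the subunits left of 0.

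Promoters of the members were read for short sequences bound by factors known to act on respiratory genes. All members lie on 19 chromosomes and the called members on 12. RefSeq windows (GRCm38.p6) from 250 bases before to 50 bases after a start site were matched to 45 of the 58 members, 49 windows in all. The unmatched members were Atp5a1, Atp5mpl, Cox17, Cox18, Cox4i1, Cox4i2, Cox6a2, Cox6c, Cyc1, Sdhc, Uqcrb, Uqcrc2 and Uqcrq. Both strands were searched. The sequence of NRF1, whose matches are the capitals printed for Sdha, Sdhd and Cox6a1, stood in 24.5% of member windows and 4.60% of all 32851 windows, the GABP sequence CCGGAAGT in 16.3% and 3.89%, the YY1 sequence AAGATGGC in 8.16% and 2.75%, and the estrogen-related receptor sequence TCAAGGTCA in 4.08% and 0.423%. Of the sequences HES1 is known to bind, CACGNG stood in 30.6% of member windows and 27.5% of all windows, and CACNAG in 46.9% and 42.5%. These letters overlap, since CACGAG fits both. Between the 13 windows of called members and the 36 windows of members not called, the NRF1 sequence stood in 30.8% and 22.2%, the GABP sequence in 23.1% and 13.9%, the YY1 sequence in 0% and 11.1%, the estrogen-related receptor sequence in 7.69% and 2.78%, CACGNG in 38.5% and 27.8%, and CACNAG in 46.2% and 47.2%. A match is a description of the letters, and no binding was measured. The windows of all genes were taken without regard to their level in these cultures. No share over genes of similar level or base composition was computed. The stretches below lie before the start site of genes from all 4 complexes, 4 called genes and Sdhd, which was not called, and show the matches of the NRF1, GABP and estrogen-related receptor sequences (in capitals) and their spacing, 5′ to 3′ on the strand of the gene.
Sdha (chr13:74350281-74350343, minus strand, 103 to 41 bases before the start): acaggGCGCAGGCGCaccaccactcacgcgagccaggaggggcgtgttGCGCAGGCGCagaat
Sdhd (chr9:50603850-50603939, minus strand, 90 to 1 bases before the start): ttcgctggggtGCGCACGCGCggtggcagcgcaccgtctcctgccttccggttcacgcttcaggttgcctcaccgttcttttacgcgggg
Uqcrh (chr4:116075071-116075130, minus strand, 60 to 1 bases before the start): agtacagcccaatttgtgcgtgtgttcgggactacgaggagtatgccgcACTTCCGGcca
Cox6a1 (chr5:115349058-115349128, minus strand, 170 to 100 bases before the start): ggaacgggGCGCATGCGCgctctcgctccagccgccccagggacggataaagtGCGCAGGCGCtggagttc
Atp5g3 (chr2:73911327-73911386, minus strand, 60 to 1 bases before the start): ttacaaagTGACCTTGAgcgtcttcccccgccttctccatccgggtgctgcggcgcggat
NRF1 letters occur as a pair in Sdha and in Cox6a1 and singly in Sdhd. The capitals in Uqcrh are the GABP sequence and those in Atp5g3 the estrogen-related receptor sequence, both read on the opposite strand. Sdha holds a further NRF1 match that begins 10 bases before the start and Atp5g3 one after its start, neither printed. CACGNG also occurs in 2 of these stretches and is not marked, in Sdha in lower case between the NRF1 pair (cacgcg) and in Sdhd inside the NRF1 capitals.

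In complex II, 3 of the 4 subunits rose, where 5.85% of all genes tested and 10.1% of those with at least 30 CPM did. Sdha, the flavoprotein that oxidizes succinate (chr13:74322254-74350280), was at 567, 672 and 626 CPM in control and 898, 773 and 869 CPM in Rosa-Hes1 libraries. Sdhb, which carries the iron-sulfur clusters, stood at 222, 275 and 264 CPM in the control libraries and 355, 312 and 361 CPM in those with Rosa-Hes1. The groups did not overlap for either gene, and Rosa-Hes1 2 was the lowest of its group for both, with log2 fold changes of 0.45 ± 0.09 for Sdha (adjusted p = 0.0201) and 0.43 ± 0.10 for Sdhb (adjusted p = 0.0298). Sdhc, a membrane anchor, measured 168, 178 and 187 CPM in control and 233, 210.4 and 238 CPM in Rosa-Hes1 libraries. It also rose without overlap (log2 fold change 0.36 ± 0.07, adjusted p = 0.0242). Sdhd, the other anchor, was at 252, 308 and 287 CPM in the control libraries and 370.0, 331 and 353 CPM in those with Rosa-Hes1. Its groups did not overlap either, but it missed the threshold (log2 fold change 0.32 ± 0.09, adjusted p = 0.0574). With all 4 subunits, complex II summed to 1209, 1433 and 1363 CPM in control and 1857, 1626 and 1821 CPM in Rosa-Hes1 libraries. That sum was 1.32 times higher, and the median log2 fold change of the subunits was 0.40.

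Assembly factors of complex II were low apart from Sdhaf2, which helps attach flavin to Sdha. Sdhaf2 stood at 73.7, 81.0 and 70.8 CPM in control and 83.7, 82.5 and 80.4 CPM in Rosa-Hes1 libraries. Control 2 lay within the Rosa-Hes1 range, and the gene was not called (log2 fold change 0.13 ± 0.07, adjusted p = 0.307). Sdhaf4, which helps join Sdha to Sdhb, measured 8.12, 11.9 and 10.2 CPM in the control libraries and 11.9, 10.6 and 12.4 CPM in those with Rosa-Hes1. Its groups overlapped (log2 fold change 0.20 ± 0.15, adjusted p = 0.484). Sdhaf1 and Sdhaf3 had log2 fold changes of 0.00 and 0.14 at means of 4 to 7 CPM, whose direction turned in some alternatives, and Sdhaf1 shares 69.6% of its exon bases with another gene. Of the 4 assembly factors, 0 were called and 0 had an unadjusted p under 0.05 by edgeR, DESeq2 or limma-voom. With 4 genes this is near the share over all genes, of which edgeR called 8.25% in either direction.

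Complex III followed with 6 of 9 subunits called higher, beside the same 5.85% and 10.1%. Uqcrc2, a core protein (chr7:120635176-120659524), was at 246, 294 and 275 CPM in control and 381, 349 and 372 CPM in Rosa-Hes1 libraries. Uqcrfs1, the Rieske iron-sulfur protein that takes electrons from coenzyme Q, stood at 175, 209 and 198 CPM in the control libraries and 269, 244 and 266 CPM in those with Rosa-Hes1. Cyc1, cytochrome c1, which passes them on to cytochrome c, measured 261, 301 and 278 CPM in control and 353, 359 and 353 CPM in Rosa-Hes1 libraries. Cyc1 was highest in Rosa-Hes1 2, the other 2 genes were lowest there within their group, and all stood above every control library, with log2 fold changes of 0.44 ± 0.08 for Uqcrc2 (adjusted p = 0.0161), 0.42 ± 0.08 for Uqcrfs1 (adjusted p = 0.0194) and 0.34 ± 0.07 for Cyc1 (adjusted p = 0.0225). Small subunits also rose, among them the hinge protein Uqcrh, whose promoter is printed above. Uqcrh was at 157, 193 and 167 CPM in the control libraries and 233, 207 and 228 CPM in those with Rosa-Hes1. Uqcr10 stood at 109, 132 and 136 CPM in control and 170.4, 157 and 169 CPM in Rosa-Hes1 libraries. Uqcrq measured 114, 130.1 and 122 CPM in the control libraries and 157, 141 and 150.0 CPM in those with Rosa-Hes1. In each of these control 1 was the lowest library and Rosa-Hes1 2 the lowest of its group, and the groups did not overlap, with log2 fold changes of 0.37 ± 0.09 for Uqcrh (adjusted p = 0.0394), 0.39 ± 0.09 for Uqcr10 (adjusted p = 0.0354) and 0.29 ± 0.07 for Uqcrq (adjusted p = 0.0474). Uqcr11 was called by DESeq2 but not by edgeR, and its groups did not overlap (log2 fold change 0.31 ± 0.10, adjusted p = 0.0856), and Uqcrb was not called with groups that overlapped (log2 fold change 0.23 ± 0.08, adjusted p = 0.119). The summed level of complex III was 1331, 1606 and 1466 CPM in control and 1903, 1756 and 1888 CPM in Rosa-Hes1 libraries, 1.26 times higher.

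Cytochrome c, the soluble carrier between complexes III and IV, was not called. Cycs was at 166, 183 and 168 CPM in control and 180.3, 174 and 181 CPM in Rosa-Hes1 libraries. Control 2 was the highest of all 6 libraries and the groups overlapped (log2 fold change 0.05 ± 0.06, adjusted p = 0.683).

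Complex IV rose in 3 of 14 subunits, where 5.85% of all genes tested and 10.1% of those with at least 30 CPM did. Cox4i2, Cox6a2, Cox6b2 and Cox7a1, described further below, had means below 30 CPM, and no member at that level was called. Cox4i1, a large structural subunit (chr8:120668222-120674207), stood at 288, 319.6 and 305 CPM in the control libraries and 404, 356 and 385 CPM in those with Rosa-Hes1. Cox6a1, whose promoter holds the NRF1 pair, measured 183, 216 and 202 CPM in control and 269.8, 254 and 252 CPM in Rosa-Hes1 libraries. Cox8a, the smallest subunit, was at 179, 198 and 183 CPM in the control libraries and 254, 237 and 235 CPM in those with Rosa-Hes1. All were higher in every Rosa-Hes1 library than in any control library, with log2 fold changes of 0.33 ± 0.07 for Cox4i1 (adjusted p = 0.0298), 0.37 ± 0.08 for Cox6a1 (adjusted p = 0.0239) and 0.37 ± 0.07 for Cox8a (adjusted p = 0.0162). Cox6b1, which links the monomers of the complex, stood at 196, 222 and 204 CPM in control and 250.2, 236 and 257 CPM in Rosa-Hes1 libraries. It and Cox7b, Cox5b and Cox6c had groups that did not overlap but missed the threshold, with log2 fold changes of 0.26 ± 0.07 for Cox6b1 (adjusted p = 0.0589), 0.25 ± 0.07 for Cox7b (adjusted p = 0.0724), 0.23 ± 0.08 for Cox5b (adjusted p = 0.110) and 0.21 ± 0.08 for Cox6c (adjusted p = 0.144). Cox5a, Cox7a2 and Cox7c had log2 fold changes of 0.09, 0.13 and 0.10 with overlapping groups. Summed over its subunits, complex IV was at 1599, 1813 and 1726 CPM in control and 2134, 1974 and 2060 CPM in Rosa-Hes1 libraries, 1.20 times higher, with a median log2 fold change of 0.26. That median includes the low genes Cox4i2, Cox6b2, Cox7a1 and Cox6a2, at 1.10, 0.86, 0.70 and 0.10.

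**Figure D2:**
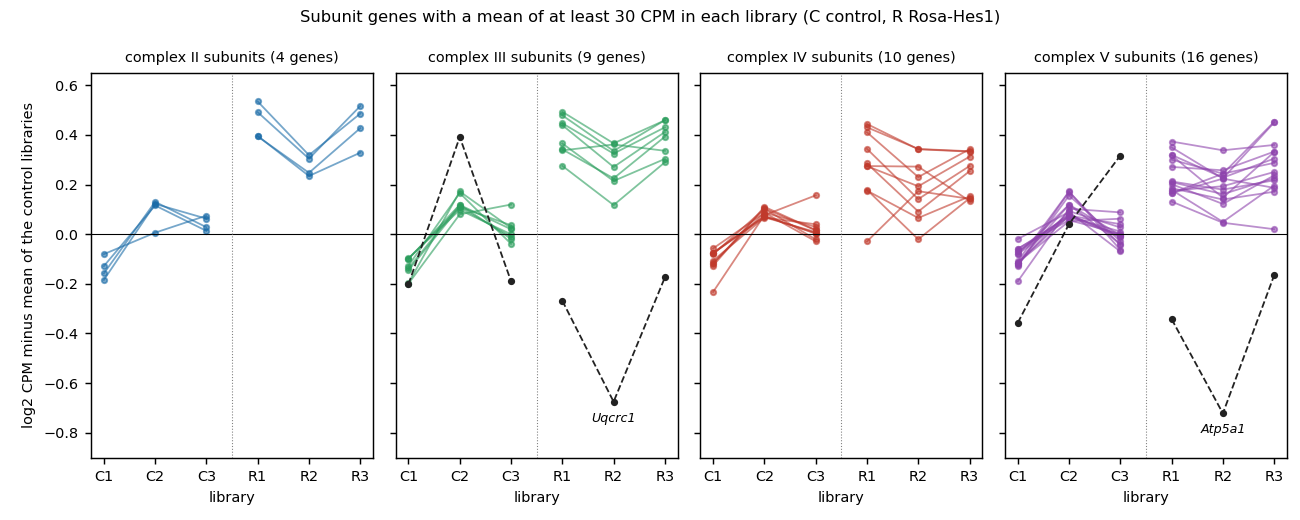
Log2 CPM of each subunit gene with a mean of at least 30 CPM in each library (x axis, C control and R Rosa-Hes1), minus its mean over the control libraries (y axis); lines join the points of one gene within a group. Most genes are lowest in control 1 and, within Rosa-Hes1, lowest in library 2; the dashed lines are Uqcrc1 and Atp5a1.

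Several subunits of complex IV exist as alternative forms, and the tissue-restricted forms were low or silent. Per kilobase of transcript, Cox4i1 was at 460 CPM and Cox4i2, the form of the lung, at 0.15 CPM. Cox6a1 was at 402 CPM and its heart and muscle form Cox6a2 at 0.65 CPM, and Cox6b1 was at 368 CPM against 0.53 CPM for the testis form Cox6b2. Cox8a was at 390 CPM while Cox8b was at 0 counts. The exception was Cox7a1, the heart and muscle counterpart of Cox7a2, at 13.4 CPM per kilobase against 273 CPM for Cox7a2. Cox7a1 measured 3.91, 3.65 and 4.51 CPM in the control libraries and 8.57, 4.18 and 6.83 CPM in those with Rosa-Hes1. Control 3 lay above Rosa-Hes1 2, so the groups overlapped, and although its fold was the largest among members above 1 CPM the gene was not called (log2 fold change 0.70 ± 0.26, adjusted p = 0.133). Its log2 fold change was 0.45 without Rosa-Hes1 1 and 0.94 without Rosa-Hes1 2, when it was called. Cox4i2, Cox6a2 and Cox6b2 each stayed below 1 CPM in every library, and none was called, with log2 fold changes of 1.10 ± 1.15 for Cox4i2 (adjusted p = 0.616), 0.10 ± 0.54 for Cox6a2 (adjusted p = 0.937) and 0.86 ± 0.60 for Cox6b2 (adjusted p = 0.423). Leaving out Rosa-Hes1 1 lowered the log2 fold change of Cox6b2 to 0.20, and that of Cox4i2, testable in only 2 of these sets, was 0.61 without control 3 and 1.68 without Rosa-Hes1 2. For Cox6a2 the direction turned without control 2 (-0.29) and without Rosa-Hes1 2 (-0.27).

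Among the assembly factors of complex IV, Cox15 rose. Cox15, which makes the heme A that complex IV carries (chr19:43733254-43753000), was at 88.5, 95.4 and 81.8 CPM in control and 139.8, 121 and 117 CPM in Rosa-Hes1 libraries. Its groups did not overlap, and its log2 fold change was the highest of the called members (log2 fold change 0.51 ± 0.09, adjusted p = 0.0152). Cox10, the enzyme of the preceding step of heme A synthesis, stood at 52.3, 56.5 and 49.8 CPM in the control libraries and 57.2, 60.0 and 56.3 CPM in those with Rosa-Hes1. Control 2 lay just above Rosa-Hes1 3, so the groups overlapped, and it was not called (log2 fold change 0.13 ± 0.07, adjusted p = 0.323). Cox14, which guards the newly made mitochondrial subunit Cox1, measured 40.9, 48.9 and 48.1 CPM in control and 59.0, 53.4 and 56.6 CPM in Rosa-Hes1 libraries. That gene had groups without overlap and was not called (log2 fold change 0.29 ± 0.09, adjusted p = 0.0786). Cox11 and Cox17, which deliver copper, and Cox16, Cox18 and Cox19 were below 30 CPM with log2 fold changes between -0.11 and 0.15, none called, and the direction of all but Cox11 turned in at least 1 alternative. Cox11 and Cox16 share 48.3% and 56.8% of their exon bases with other genes.

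Cox7a2l (also called SCAF1), which joins complexes III and IV into supercomplexes, was at 179, 209 and 207 CPM in the control libraries and 268, 221 and 243 CPM in those with Rosa-Hes1. No control library reached a Rosa-Hes1 library, and the gene missed the threshold (log2 fold change 0.30 ± 0.09, adjusted p = 0.0828).

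Complex V rose in 4 of 16 subunits, where 5.85% of all genes tested and 10.1% of those with at least 30 CPM did. In the F1 head, Atp5b, the catalytic beta subunit and the most abundant transcript of the members (chr10:128083273-128090391), stood at 1487, 1610 and 1550 CPM in control and 1906, 1833 and 1889 CPM in Rosa-Hes1 libraries. Atp5d, the delta subunit of the central stalk, measured 213, 242 and 237 CPM in the control libraries and 298, 291 and 295 CPM in those with Rosa-Hes1. Both rose without overlap, with log2 fold changes of 0.28 ± 0.06 for Atp5b (adjusted p = 0.0350) and 0.35 ± 0.07 for Atp5d (adjusted p = 0.0193). Atp5c1 (gamma) had groups without overlap and those of Atp5e (epsilon) overlapped, and neither was called, with log2 fold changes of 0.20 ± 0.07 for Atp5c1 (adjusted p = 0.121) and 0.29 ± 0.10 for Atp5e (adjusted p = 0.119). In the peripheral stalk, Atp5o, the subunit that confers oligomycin sensitivity, was at 41.1, 44.3 and 39.7 CPM in control and 53.1, 48.7 and 56.9 CPM in Rosa-Hes1 libraries. It rose (log2 fold change 0.34 ± 0.08, adjusted p = 0.0439), but 47.9% of its exon bases lie in other annotated genes, so its level is uncertain. Atp5f1 and Atp5h were higher in all Rosa-Hes1 libraries and Atp5j was not, none called, with log2 fold changes of 0.16 ± 0.06 for Atp5f1 (adjusted p = 0.146), 0.20 ± 0.09 for Atp5h (adjusted p = 0.190) and 0.14 ± 0.07 for Atp5j (adjusted p = 0.286).

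In the membrane sector, 3 genes encode the same mature subunit c of the rotor ring. Atp5g3, the one of them with the most counts, stood at 335, 388 and 371 CPM in the control libraries and 439, 435 and 458 CPM in those with Rosa-Hes1. It rose without overlap (log2 fold change 0.28 ± 0.07, adjusted p = 0.0461). Atp5g1 was not called (log2 fold change 0.19 ± 0.08, adjusted p = 0.189). Its count is uncertain, since 50.4% of its 75-base windows also occur in transcripts of other genes, against 0% for Atp5g3. Atp5g2 measured 84.3, 93.5 and 89.8 CPM in control and 97.6, 92.0 and 90.4 CPM in Rosa-Hes1 libraries. Its groups overlapped and it was not called (log2 fold change 0.07 ± 0.07, adjusted p = 0.620), and all of its 75-base windows also occur in transcripts of other genes, which makes its count uncertain. Whether the 3 genes differed from each other was not tested, and the shared windows limit a comparison of their levels. Atp5j2, Atp5k, Atp5l and Atp5mpl, small subunits around the ring, had log2 fold changes of 0.19 to 0.28 and were not called, the nearest being Atp5j2, which DESeq2 called (log2 fold change 0.28 ± 0.07, adjusted p = 0.0547). Complex V summed to 3797, 4282 and 4084 CPM in control and 4801, 4625 and 4843 CPM in Rosa-Hes1 libraries, 1.17 times higher, with a median log2 fold change of 0.20. Atp5s, a coupling factor, was near 5 CPM with a log2 fold change of -0.02 (adjusted p = 0.969), which turned above 0 without control 2, control 3, Rosa-Hes1 2 or Rosa-Hes1 3 (0.01 to 0.10).

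Uqcrc1 and Atp5a1 were the subunits with log2 fold changes below 0. Uqcrc1, the core protein that pairs with Uqcrc2 (chr9:108936633-108949623), was at 67.8, 102 and 68.3 CPM in the control libraries and 64.7, 48.8 and 69.1 CPM in those with Rosa-Hes1. Control 2 was the highest library and Rosa-Hes1 2 the lowest, and the rest lay between 64.7 and 69.1 CPM. Atp5a1, the alpha subunit that alternates with the beta subunit in the F1 head (chr18:77773729-77782869), stood at 92.4, 122 and 147 CPM in control and 93.4, 71.8 and 106 CPM in Rosa-Hes1 libraries. The groups overlapped for both genes, and neither was called by edgeR, with log2 fold changes of -0.39 ± 0.19 for Uqcrc1 (adjusted p = 0.266) and -0.42 ± 0.20 for Atp5a1 (adjusted p = 0.235), although both are the members lower at an unadjusted p under 0.05 in DESeq2. The log2 fold change of Uqcrc1 was -0.16 without control 2 and -0.25 without Rosa-Hes1 2, and that of Atp5a1 was -0.25 without control 3 and -0.28 without Rosa-Hes1 2. Their SE was 0.19 and 0.20, against a median SE of 0.08 over the 45 members of at least 30 CPM. The level of these genes was also low for partners of a fixed stoichiometry: per kilobase of transcript Uqcrc1 was at 42.4 CPM and Uqcrc2 at 169 CPM, and Atp5a1 was at 42.7 CPM and Atp5b at 894 CPM. Atp5b exceeded Atp5a1 by 16.6 times in control and 26.8 times in Rosa-Hes1 libraries. Neither gene shares many bases with other annotated genes (0% of exon bases for Uqcrc1 and 4.12% for Atp5a1), while Uqcrc2 shares 19.7% with Pdzd9. Of the 75-base windows of Uqcrc1 0%, and of those of Atp5a1 2.3%, also occur in annotated transcripts of other genes. Reads lost to multiple alignment or duplicate removal, and the choice of transcript, were not tested.

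**Figure D3:**
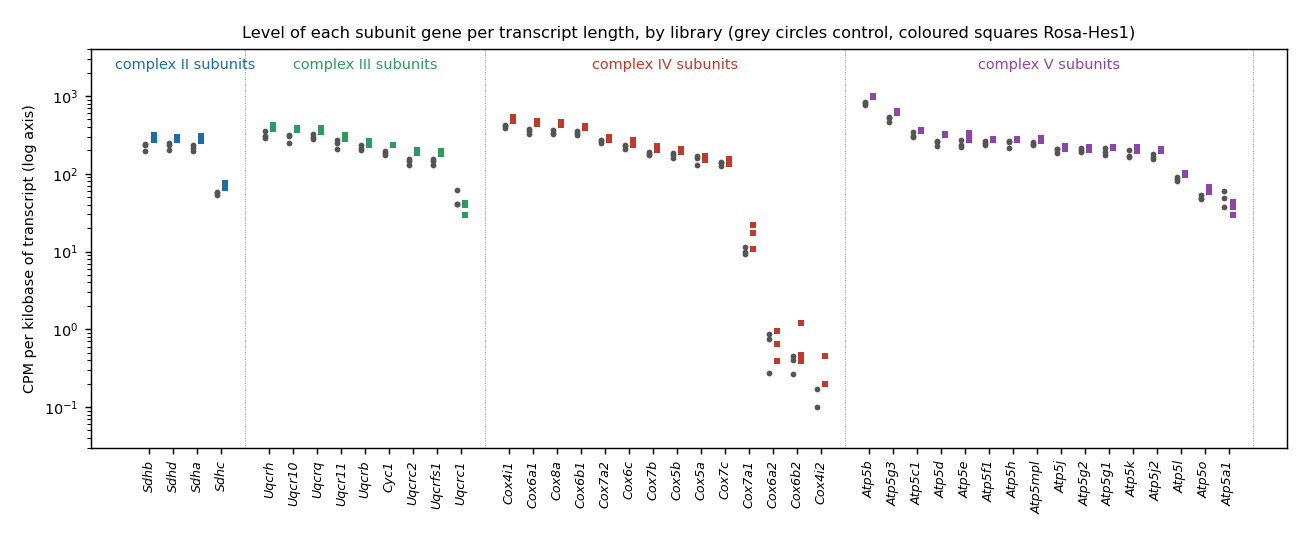
CPM per kilobase of transcript (y axis, log scale) of each subunit gene in each library, control (circles) and Rosa-Hes1 (squares), ordered within each complex by level; libraries at 0 are not drawn. Atp5b is highest at 894 CPM per kilobase over all libraries, Uqcrc1 and Atp5a1 are the lowest of complexes III and V, and Cox7a1, Cox6a2, Cox6b2 and Cox4i2 lie below the other subunits of complex IV.

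Levels per kilobase place subunits of a complex side by side. In complex II, Sdhb, Sdhd and Sdha were at 261, 257 and 253 CPM per kilobase and Sdhc at 63.8. The transcript lengths used were 1142 bases for Sdhb, 1231 for Sdhd, 2900 for Sdha and 3171 for Sdhc. Before division by length Sdhc was at 202 CPM, and the choice of transcript was not tested. In complex III, Uqcrh, Uqcr10 and Uqcrq were at 361, 335 and 335 CPM per kilobase. Uqcrq stood above Uqcr10 in control (301 and 290 CPM per kilobase) and below it in Rosa-Hes1 libraries (368 and 381 CPM per kilobase), so their order was not resolved. The highest means were those of Cox4i1 in complex IV and of Atp5b and then Atp5g3 in complex V, the last at 566 CPM per kilobase. In complex II, where control and Rosa-Hes1 libraries gave Sdha 214 and 292, Sdhb 222 and 300 and Sdhd 229 and 285 CPM per kilobase, the ranges of these 3 genes over the libraries overlapped within each group, so their order was not resolved. Among assembly factors Cox14 and Sdhaf2 were the most abundant per kilobase in their groups, at 70.7 and 26.4 CPM.

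Within each group most members deviated in the same direction in a given library. Of the 45 members with at least 30 CPM, 1 was above its group mean in control 1, 45 in control 2 and 25 in control 3. In the Rosa-Hes1 group the numbers were 38, 6 and 36. The same libraries stood apart in the summed osteoclast markers, which were lowest in control 1 (10755 CPM) among controls and in Rosa-Hes1 2 (17050 CPM) within its group. Both were also the highest of their group in summed dividing-cell markers (2048 and 1663 CPM). The same held for osteoblast and stroma markers (258 and 198 CPM). Which of these markers goes with the members was not tested, and the counts of deviations were not made over all genes. On the first principal component of all genes, control 1 was at -43.6 and Rosa-Hes1 2 at 2.76, with the other controls at -15.7 and -18.0 and the other Rosa-Hes1 libraries at 36.4 and 38.2. Members took 0.895 to 1.002% of the CPM of all genes tested in control and 1.08 to 1.12% in Rosa-Hes1 libraries. The difference within control, between libraries 1 and 2, was thus larger than the gap between control 2 and Rosa-Hes1 2.

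None of the subunits made from mitochondrial DNA was called. Of 6 such genes, 5 were tested and 0 were called by edgeR, DESeq2 or limma-voom, with 0 at an unadjusted p under 0.05. Over all genes tested edgeR called 8.25% in either direction, and 0 among so few genes is near that share. The core subunit of complex IV, mt-Co1, was at 2268, 2057 and 2349 CPM in the control libraries and 1953, 2090 and 2221 CPM in those with Rosa-Hes1 (log2 fold change -0.09 ± 0.08, adjusted p = 0.531). Cytochrome b of complex III, mt-Cytb, was at 1393, 1257 and 1275 CPM in control and 1261, 1418 and 1439 CPM in Rosa-Hes1 libraries (log2 fold change 0.07 ± 0.08, adjusted p = 0.641). The groups overlapped for both. The others, mt-Co2, mt-Co3 and mt-Atp6, were below 1 CPM and mt-Atp8 was at 0 counts, so no change could be detected there. These counts cannot be read as levels, since whether reads of these genes were lost in alignment or counting was not tested. A difference between nuclear and mitochondrial subunits was not tested.

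Other genes that serve these complexes rose in part. Ndufa4, a subunit of complex IV whose symbol recalls complex I, stood at 185, 217 and 194 CPM in the control libraries and 258, 234 and 261 CPM in those with Rosa-Hes1, without overlap (log2 fold change 0.34 ± 0.08, adjusted p = 0.0372). In the list of 30 other assembly factors, 26 were tested, 2 rose and 0 fell, a share near the 5.85% of all genes (limma-voom called 1): Tmem70, a factor for complex V (log2 fold change 0.29 ± 0.07, adjusted p = 0.0359), and Higd1a, a small factor of complex IV (log2 fold change 0.47 ± 0.12, adjusted p = 0.0450). Of 13 genes for coenzyme Q, the carrier that complexes II and III share, 3 rose and 0 fell, where 5.85% and 2.41% of all genes tested did. These were Coq8a, a kinase-like protein of the synthesis complex (log2 fold change 0.87 ± 0.13, adjusted p = 0.00997), Coq9, a lipid-binding protein of that complex (log2 fold change 0.54 ± 0.09, adjusted p = 0.0127), and Coq10a, a coenzyme Q chaperone (log2 fold change 1.23 ± 0.23, adjusted p = 0.0205). Their control and Rosa-Hes1 means were 106 and 195 CPM, 47.8 and 69.6 CPM, and 15.1 and 35.5 CPM. Of the 13 genes, 9 had a log2 fold change above 0, where 48.6% of all genes tested did. Among 7 tested carriers that feed complex V, 3 rose and 0 fell, where 5.85% and 2.41% of all genes tested did: Slc25a4, an ADP/ATP exchanger (log2 fold change 0.38 ± 0.08, adjusted p = 0.0229), Slc25a3, the phosphate carrier (log2 fold change 0.32 ± 0.07, adjusted p = 0.0293), and Vdac1, the outer membrane channel (log2 fold change 0.34 ± 0.08, adjusted p = 0.0384). Ucp2, an uncoupling protein, and Vdac3, another channel, had lower groups without overlap at an unadjusted p under 0.05 and were not called, with log2 fold changes of -0.18 ± 0.06 for Ucp2 (adjusted p = 0.127) and -0.14 ± 0.06 for Vdac3 (adjusted p = 0.179). Atpif1, the inhibitor of complex V, and Usmg5, one of its small subunits, carry other symbols in the annotation and were not called, with log2 fold changes of -0.12 ± 0.07 for Atpif1 (adjusted p = 0.334) and 0.21 ± 0.08 for Usmg5 (adjusted p = 0.140). Of 10 tested regulators of mitochondrial biogenesis, 0 rose by edgeR, DESeq2 or limma-voom (1 at an unadjusted p under 0.05 in edgeR) and Pprc1, a coactivator of the PGC-1 family, fell (log2 fold change -0.47 ± 0.11, adjusted p = 0.0367). For so few genes these counts are near the shares of all genes tested, 5.85% higher and 2.41% lower. The factors whose letters were searched above gave log2 fold changes of 0.03 for Nrf1, -0.02 for Gabpa, 0.04 for Yy1 and 0.20 for Esrra, none called. These calls, like those of the members, were lost when single libraries were left out: without Rosa-Hes1 1 none of the 10 genes listed here as changed passed, with adjusted p from 0.0529 to 0.158.

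**Figure D4:**
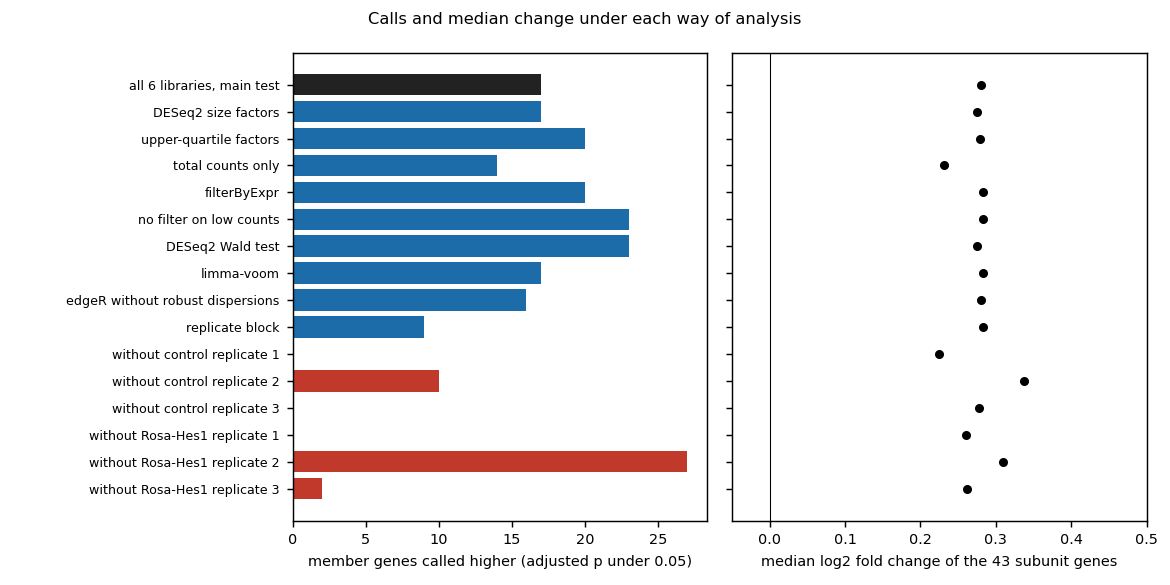
Number of members called higher (left, x axis) and median log2 fold change of the 43 subunits of complexes II to V (right, x axis) under each way of analysis (y axis; black the 6-library edgeR test, blue other settings, red one library left out). Calls run from 0 to 27 while the median stays between 0.22 and 0.34.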

How the data were processed

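The deposited values were raw read counts per gene, 1 table per library (3 control, 3 Rosa-Hes1), which the authors made from paired 75-base reads of polyadenylated RNA (TruSeq Stranded mRNA, 1 pool) by trimming, alignment with HISAT2 2.1.0, SAMtools 1.9 sorting, Picard duplicate removal and HTSeq-count, per the study's methods and the submitters' processing notes. The notes name the mouse build GRCm38 and the methods a human build, and the gene IDs in the tables are those of mouse. Removing duplicates without molecular identifiers can lower counts most for abundant short transcripts. The strand setting of counting is not given in the sources used here. HTSeq-count's classes of reads outside genes (17.4 to 18.1% of each library) and of ambiguous reads (5.51 to 6.07%) stayed out of library sizes. IDs were named from GENCODE M21 (GRCm38). The share without a symbol was 0.167%.

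Genes with at least 10 counts summed over 6 libraries were tested with edgeR 4.0.16 in R 4.3.3 (TMM scaling, robust quasi-likelihood fit on group, Benjamini-Hochberg adjustment over 16954 genes, threshold 0.05). The SE of a log2 fold change was its size divided by the square root of F. CPM used TMM-scaled library sizes. CPM per kilobase used the length of the principal transcript, and shared sequence was the share of its 75-base windows found in other genes' transcripts. Among others, that share was 76.0% for Atp5l, 50.4% for Cox7c, 40.3% for Atp5h and 29.1% for Uqcrb. For Atp5f1, Cycs and Uqcrc2 it was 27.9%, 26.1% and 23.8%. The counts of these genes are uncertain to that extent. Fits were tested on simulated data. Replicate pairs differed by more than sampling noise (chi-square per degree of freedom 9.49 to 18.4), so no library was counted double.

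Alternatives were DESeq2 1.42.0 (Wald test), limma-voom (limma 3.58.1), other scalings and filters, a non-robust fit, replicate number as a block, and each library left out. Members, gene lists and markers were chosen with earlier results of these data known. Genes were named if called or at an unadjusted p under 0.05, if among the 2 highest per length or of largest log2 fold change in their group, as isoform pairs, or as preset key subunits, and from lists of other genes if called. Uqcrc1, Cox10, Atp5g2, Ucp2, Vdac3 and the other members named were added after their values were seen.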

Additional observations from a re-analysis of the deposited data

How the results depend on the processing

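Directions of the group medians and of the called members stayed the same under every alternative run, whereas counts of calls did not. The number of members called higher was 14 with total-count scaling, 16 with the non-robust fit, 17 with limma-voom, 20 with upper-quartile scaling, 20 with edgeR's expression filter (55 members kept), 23 without a filter and 23 with DESeq2, against 17 in the 6-library edgeR test. Left-out libraries moved it from 0 to 27, the higher genes over all tested from 244 to 1555 (991 with all libraries) and the lower genes from 21 to 1091 (408 with all libraries). Lower genes numbered 697 without a filter and 864 with DESeq2. With the replicate number as a block 9 members were called, but the labels link the samples by number only. Deviations of same-numbered libraries correlated at -0.01, -0.11 and 0.21, and those of differently numbered ones at -0.29 to 0.30. With 3 libraries a group these correlations cannot decide whether same-numbered libraries share a litter or a culture batch. Direction turned in some left-out sets for Atp5s (-0.17 to 0.097 on the log2 scale, above 0 without control 2, control 3, Rosa-Hes1 2 or Rosa-Hes1 3), for Cox6a2 (-0.29 to 0.40, below 0 without control 2 or Rosa-Hes1 2) for mt-Atp6 (-0.070 to 1.77, below 0 without Rosa-Hes1 3), and for the following members with log2 fold changes near 0: Sdhaf3 (-0.041 to 0.32), Sdhaf1 (-0.11 to 0.13), Cox16 (-0.22 to 0.15), Cox17 (-0.37 to 0.048), Cox18 (-0.21 to 0.10), Cox19 (-0.043 to 0.052) and Cox5a (-0.020 to 0.17). Other settings turned Sdhaf1 with DESeq2 size factors (-0.0027), total counts (-0.045) and DESeq2 (-0.0032), Cox16 with total counts (-0.038), limma-voom (-0.017) and the replicate block (-0.0097), and Cox19 with DESeq2 size factors (-0.0053), upper-quartile factors (-0.0019), total counts (-0.048), DESeq2 (-0.0060) and limma-voom (-0.0021). Of the alternatives for single genes, 961 kept direction and side of the threshold, 28 gained the call, 132 lost it and 33 turned. The cause was not tested. With 3 libraries a group, 15 members had groups that did not overlap and were not called.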
